A study of Mus musculus with 6 samples.

Results

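Genes for neurotransmitter receptors were examined in MN9D cells, a mouse dopaminergic line made by fusing embryonic ventral midbrain cells with a neuroblastoma. They were the genes of the dopamine, adrenergic, muscarinic, nicotinic, serotonin, ionotropic and metabotropic glutamate, GABA-A and GABA-B receptors, chosen by gene symbol alone. The choice took 108 of 31769 probes, standing for 80 of the 17865 genes named on the array, and 14 of the 80 had several probes. The Lmx1a cells were transfected with 6 µg of pcDNA3.1(-)-Lmx1a, which carries the coding sequence of Lmx1a, a LIM homeobox regulator that helps to specify midbrain dopaminergic neurons. The control cells received an equimolar amount of the empty pcDNA3.1(-) plasmid according to the growth protocol and the series' design text, while the sample labels call them wild type; pBluescript SKII(+) was added as carrier DNA. RNA of 3 Lmx1a pools, each from 3 dishes, was hybridised on 2-colour arrays to 1 control pool from 9 dishes, once with Lmx1a RNA in Cy5 and once with Lmx1a RNA in Cy3. The 6 arrays therefore gave 3 replicates, each the mean of a dye-swapped pair, and the log2 ratio of Lmx1a over control was tested against 0. The single control pool has no spread of its own in this test, and whether the Lmx1a pools were transfected separately is not stated, so a p-value here reflects only how far these pools varied. pcDNA3.1(-) drives its insert from a CMV promoter in every cell that takes it up. The share of cells that did is not given in the labels. In such bulk RNA, fewer cells expressing a gene and less RNA per cell cannot be told apart.

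Neurotransmitter receptors fall into ligand-gated ion channels, built from several subunits, and G protein-coupled receptors, which act through second messengers. A channel needs a compatible set of subunits, so the RNA of a single subunit does not show that a receptor was formed. Midbrain dopaminergic neurons are known to carry Drd2 as an autoreceptor, nicotinic channels with alpha6 and beta3 subunits, the muscarinic receptor Chrm5, and NMDA, AMPA, GABA-A and GABA-B receptors for their glutamatergic and GABAergic inputs.

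The line carried part of the marker set of its labelled cell type. Of 10 dopaminergic markers 3 were detected in both channels on all 6 arrays, Th, Ddc and Slc18a2, of dopamine synthesis and storage. Nr4a2 was detected on 6 arrays in the Lmx1a channel and 5 in the control channel, En2 on 5 and 4, and En1 on 4 and 2. Slc6a3, Pitx3, Foxa2 and Aldh1a1 were detected in neither channel on any array. Of 9 neuronal markers 5 were detected in both channels on all 6 arrays, and Map2 and Nefl on none. Markers of other cell types were detected in part (1 of 5 astrocyte, 2 of 4 oligodendrocyte, 2 of 5 microglial and leukocyte, and 1 of 5 fibroblast and muscle genes), with Gfap and Olig1 in neither channel on any array. Those detected in both channels on all 6 arrays were S100b, Mag, Mog, Cd68, Aif1 and Col1a2. Mag had a mean net brightness of 487 over both channels, against 1170 for Th, 218 for Slc18a2 and 168 for Ddc. Lmx1a itself had log2 ratios of 1.71, 2.78 and 2.97 in pools 1, 2 and 3, with a mean net brightness of 606 in the Lmx1a channel and 35.8 in the control channel. The 2 arrays of pool 1 differed, at 2.50 with Lmx1a RNA in Cy5 and 0.93 with it in Cy3, the dimmest array. On the other 5 arrays the ratio lay between 2.50 and 3.20. Lmx1a missed the threshold in limma's fit (adjusted p 0.0779) and passed it at 0.0121 with the replicate block. In the block fit without the dimmest array its mean was 2.84 (adjusted p 1.31e-06). Its mean of 2.49 became 3.79 with plain background subtraction (adjusted p 0.335). Net brightness is the mean of a spot's pixels minus the median of its local background, in scanner units. The dimmest array, that of pool 1 with Lmx1a RNA in Cy3, had 34 of 108 receptor probes detected in its Lmx1a channel and 30 in its control channel. On the other 5 arrays 48 to 62 were detected in the Lmx1a channel and 49 to 60 in the control channel.

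The first question was which receptor genes could be measured in these cells. A spot counted as detected when it was brighter, on average, than the local background median plus 2 background SDs. By this measure 24 receptor probes (22.2%) of 18 genes were detected in both channels on all 6 arrays, against 39.2% of all probes. A further 5 probes, for Chrm5, Chrne, Gabbr2, Gabra6 and Grm6, were detected on every array in at least 1 channel, which gave 29 probes (26.9%) of 22 genes, against 44.9% of all probes. At the other end, 32 receptor probes (29.6%) were detected in neither channel on any array, against 22.8% of all probes, and for 21 genes this held for every probe on the array. The remaining 47 probes were detected on some arrays. These shares describe probes as well as RNA, because a spot's brightness depends on its probe sequence, and a gene whose probe was not well above background has no measured level here.

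The families differed in how many members could be measured, as the plot of detection by receptor family shows. In the dopamine family 3 of 6 probes were detected in both channels on all 6 arrays, in the NMDA family 5 of 10 and in the GABA-B family 4 of 8. Of the 19 nicotinic probes 5 were detected in this way and 8 in neither channel on any array. Of the 17 serotonin probes 2 were detected in this way, and 7 in neither channel. None of the 17 GABA-A probes, 5 muscarinic probes or 2 adrenergic probes was detected in both channels on all 6 arrays, and 8 of the GABA-A probes were detected in neither channel on any array.

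**Figure D1:**
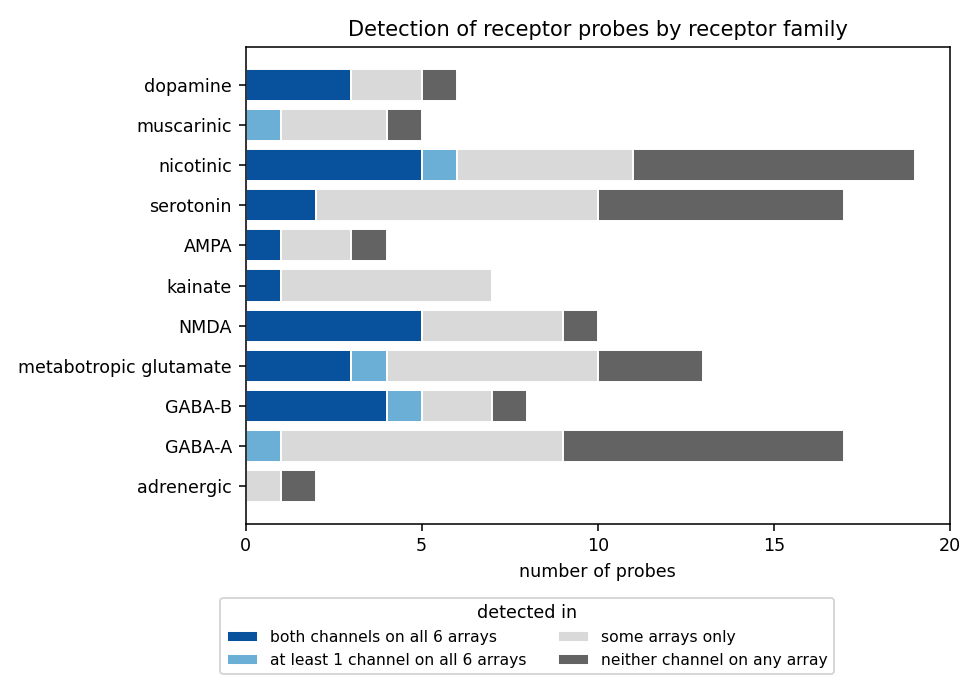
Number of receptor probes (horizontal axis) in each receptor family, split by how often the probe was detected. The NMDA (5 of 10), dopamine (3 of 6) and GABA-B (4 of 8) families have the largest shares of probes detected in both channels on all 6 arrays (dark blue), 5 other families have smaller shares, and the GABA-A, muscarinic and adrenergic families have none.

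Some subunits that assemble together were not measured together. Grin1, the subunit that every NMDA receptor contains, was detected in the Lmx1a channel on 0 arrays and in the control channel on 1, with a net brightness of 6.77 in the Lmx1a channel and 6.47 in the control channel. Its partners Grin2a, Grin2b and Grin2d, by their single probes, and Grin2c, by 2 of its 3 probes, were detected in both channels on all 6 arrays. Gabbr2, the GABA-B subunit that couples to G proteins, was detected in both channels on all 6 arrays by 4 of its 7 probes, while the single probe for Gabbr1, the subunit that binds GABA, was detected on 4 arrays in the Lmx1a channel and 5 in the control channel. Chrna10, which forms channels with Chrna9 in hair cells, was detected in both channels on all 6 arrays by 1 of its 2 probes, and Chrna9 in neither channel on any array. Htr3a was detected in both channels on all 6 arrays, and Htr3b, its neighbour in the genome and a possible partner in the channel, in neither channel on any array. The neighbouring genes Chrna5, Chrna3 and Chrnb4 form a cluster in the RefSeq gene order, and of these Chrna3 was detected on all arrays, Chrna5 on 1 array in each channel and Chrnb4 on none. Chrna6 was detected in neither channel on any array, and Chrnb3 on 4 arrays in each channel by 1 probe and in neither channel on any array by the other.

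Promoter sequences were read for the TAATTA motif, a core that LIM homeodomain proteins are known to bind. The motif is its own reverse complement, so both strands hold it together. Of the 80 receptor genes 63 had a promoter entry from RefSeq (GRCm38.p6). Of these, 4 (6.35%) held the motif in the 250 bases before the gene start, against 5.65% of all genes. They held it in 4 of 73 windows (5.48%), against 4.84% of all windows. Whether Lmx1a bound there was not tested. The genes were Chrm5, Chrnb1, Gabrg1 and Htr2a. The stretch around the motif is shown for each, 5′ to 3′ on the gene's strand with the motif in capitals (in Gabrg1 a run of 2 overlapping copies).
Chrm5, chr2:112480964-112481059, minus strand: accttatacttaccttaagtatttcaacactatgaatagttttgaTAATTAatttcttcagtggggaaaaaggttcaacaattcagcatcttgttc
Chrnb1, chr11:69796044-69796139, minus strand: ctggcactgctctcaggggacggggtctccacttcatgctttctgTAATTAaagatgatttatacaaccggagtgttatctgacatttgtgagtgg
Gabrg1, chr5:70842745-70842844, minus strand: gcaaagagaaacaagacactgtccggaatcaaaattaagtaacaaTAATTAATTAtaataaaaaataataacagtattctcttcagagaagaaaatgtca
Htr2a, chr14:74640690-74640785, plus strand: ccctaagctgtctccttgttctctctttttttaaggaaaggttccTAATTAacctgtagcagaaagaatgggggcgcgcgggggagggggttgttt
The mean log2 ratios of these genes were 0.038 for Chrm5, -0.015 for Chrnb1, -0.016 for Gabrg1 and -0.0031 for Htr2a, and none passed the threshold.

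The second question was whether Lmx1a shifted receptor genes as a group. The mean log2 ratios of the 108 probes ran from -0.054 to 0.145 and had a median of 0.0011, with 56 above 0 and 52 below, beside a median of 0.00063 over all probes. The medians of the receptor probes were 0.0019, 0.010 and -9.6e-06 in pools 1, 2 and 3. The median size of the ratio, whatever its sign, was 0.0143 for receptor probes and 0.0170 for all probes. The median SD between pools was 0.0279 for receptor probes and 0.0310 for all probes. Receptor probes were also dimmer, with a median net brightness of 12.4 against 26.8 for all probes. The sizes and SDs were not matched for brightness. A single receptor probe, 1 of 3 for Htr4, had a mean ratio beyond 0.1 in either direction. Within 0.1 of 0 lay 99.1% of receptor probes, against 96.1% of all probes. Among probes detected on all arrays the shares were 100% and 91.7%. For the 32 receptor probes detected on no array, a doubling would give a ratio of only 0.080 to 0.193 (median 0.137) after the offset. The bound of 0.1 therefore says little about such dim probes.

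**Figure D2:**
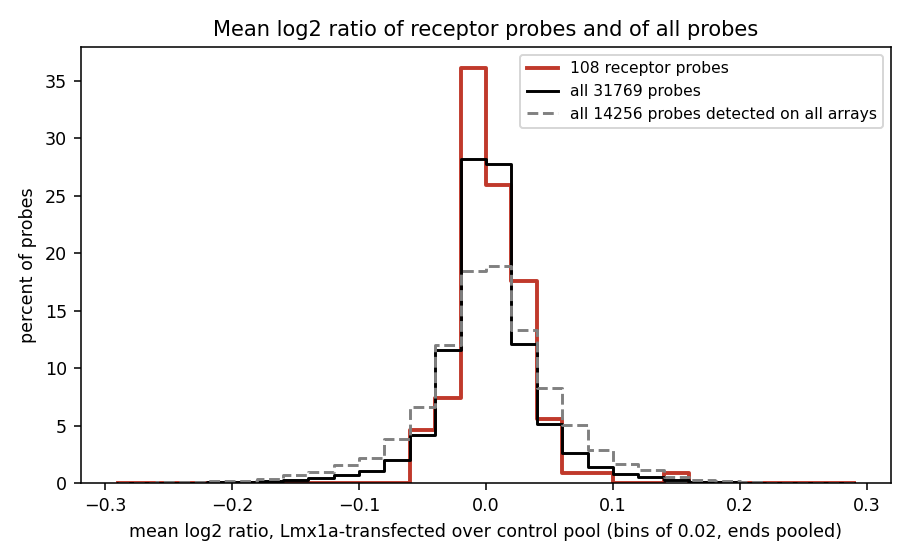
Percent of probes (vertical axis) by mean log2 ratio of Lmx1a over control (horizontal axis, in bins) for the 108 receptor probes, all 31769 probes and the 14256 probes detected in at least 1 channel on all arrays. The receptor line is centred at 0, with 107 of 108 probes (99.1%) within 0.1 of it, against 96.1% of all probes. These shares were not matched for brightness, and the bound says little about dim probes.

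No receptor probe passed an adjusted p of 0.05 in limma's fit (0 of 108, smallest adjusted p 0.358), where 0% of all 31769 probes passed. With all 6 arrays entered singly, the replicate as a block and a dye term, limma again called 0 of 108 receptor probes (smallest adjusted p 0.22), where 1.05% of all probes were called. At an unadjusted limma p under 0.05 there were 6 receptor probes (5.56%), 4 above 0 and 2 below, against 11.8% of all probes. These were the probes for Grm2, Gabrp and Htr1d and the dimmest of 3 probes for Grik4 above 0, and the dimmer of 2 probes for Drd1 and 1 of 2 for Chrnb3 below 0. None of the 6 was among the 29 receptor probes detected on all arrays, where the unadjusted count was 0 of 29 against 22.8% of all probes so detected. With the replicate block that limma count was 1 of 29, against 3482 of 14256. The 29 were dimmer, with a median net brightness of 46.2 against 113 for all probes so detected. These counts were not matched for brightness.

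The offset added to both channels draws the ratio of a dim spot towards 0, so the width of each interval was read against the ratio that a true doubling would give at that spot's brightness. This expected ratio takes the control channel's corrected signal as coming wholly from the named gene. It had a median of 0.585 for the 24 receptor probes detected in both channels on all arrays, and of 0.249 for all 108. The 95% interval held 0 for 102 of 108 probes. Its upper end lay below the ratio of a doubling for 105 of 108 probes, including all 24 detected in both channels on all 6 arrays and all 29 detected in at least 1 channel. The exceptions were 1 probe each for Htr4, Htr2c and Gabbr2. For a probe not well above background the expected ratio rests on background, so its interval gives no limit on the gene.

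**Figure D3:**
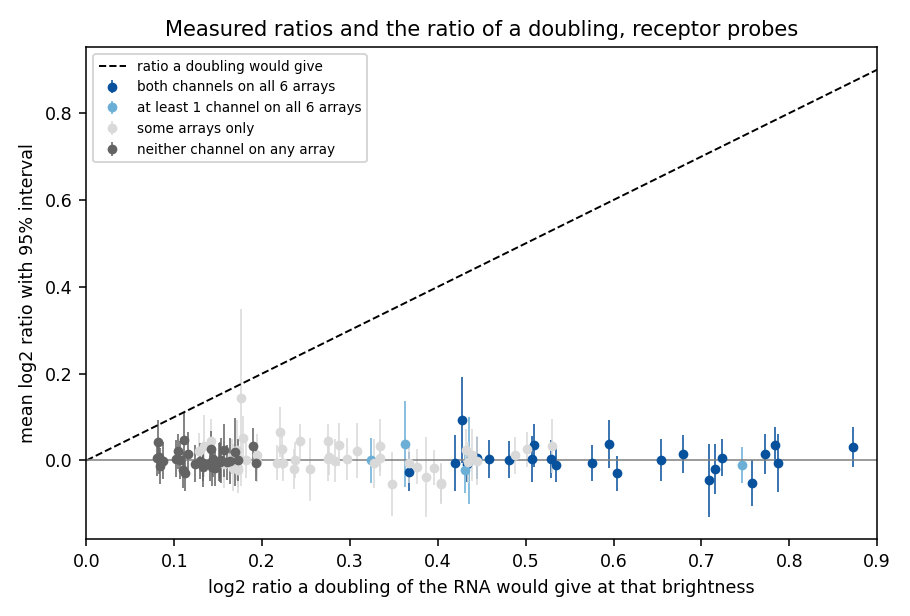
Mean log2 ratio of each receptor probe with its 95% interval from limma's fit (vertical axis) against the log2 ratio that a doubling would give at its brightness (horizontal axis), with the dashed line where the axes are equal. Every probe detected in both channels on all 6 arrays (dark blue) has its interval below the dashed line.

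Dopamine receptors bind the transmitter that these cells are named for. Drd1 and Drd5 raise cyclic AMP, and Drd2, Drd3 and Drd4 lower it. Drd2 had a net brightness of 32.5 in the Lmx1a channel and 28.6 in the control channel, and log2 ratios of 0.032, 0.018 and -0.033 in pools 1, 2 and 3. Its mean was 0.0055 ± 0.034 (SD, n = 3), with an adjusted p of 0.964 from limma. All 3 arrays with Lmx1a RNA in Cy5 lay below 0, at -0.031, -0.022 and -0.077, and all 3 with Lmx1a RNA in Cy3 above it, at 0.095, 0.058 and 0.010, so its sign followed the dye. Drd1 gave 0.039, 0.019 and -0.012 in the 3 pools by its brighter probe, with a mean of 0.015 ± 0.026 (limma adjusted p 0.845). The other Drd1 probe, detected on 4 arrays in each channel, gave -0.031, -0.089 and -0.042 and a mean of -0.054 ± 0.031 (limma unadjusted p 0.0306, adjusted p 0.36). The probes of this gene thus lay on opposite sides of 0. Drd5 was above 0 in every pool, at 0.015, 0.077 and 0.011, with a mean of 0.035 ± 0.037 and an adjusted p of 0.617, and on 4 of 6 arrays. Drd4, detected on 5 arrays in each channel, gave 0.0061, -0.032 and -0.136, with a mean of -0.054 ± 0.074. Drd3, detected on no array, had the widest range of ratios in the family, from -0.101 to 0.24 on single arrays.

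Nicotinic subunits form cation channels gated by acetylcholine, and 5 of the 16 nicotinic genes were detected in both channels on all 6 arrays. Chrna3, a subunit of ganglionic receptors, gave log2 ratios of 0.013, -0.014 and 0.046 in pools 1, 2 and 3, with a mean of 0.015 ± 0.030 (SD, n = 3). By orientation its mean was 0.085 on the 3 arrays with Lmx1a RNA in Cy5 and -0.055 on the 3 with Lmx1a RNA in Cy3. Chrna10 was above 0 in every pool, at 0.061, 0.025 and 0.018, with a mean of 0.035 ± 0.023 and a limma adjusted p of 0.54. It too followed the dye, with a mean of 0.11 when Lmx1a RNA was in Cy5 and -0.044 when it was in Cy3. Its second probe, detected in neither channel on any array, gave a mean of 0.0088. Chrna2, a brain subunit, was below 0 in every pool, at -0.063, -0.088 and -0.0059, with a mean of -0.052 ± 0.042. Its adjusted p was 0.431 in limma's fit and 0.276 with the replicate block. That mean came mostly from 1 orientation, at -0.0054 with Lmx1a RNA in Cy5 and -0.099 in Cy3. Chrnb2, the main beta subunit of brain receptors, gave -0.030, 0.039 and -0.0047, and Chrng, the subunit of fetal muscle receptors, -0.038, -0.057 and 0.035. The Chrng array values ran from -0.119 to 0.19. Chrne, the adult muscle counterpart of Chrng, gave 0.11, -0.11 and 0.00028 by the probe detected in at least 1 channel on all arrays, with a mean of -0.00029 ± 0.11.

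A pair of receptor probes kept 1 sign on all 6 arrays, 2 of 108 (1.85%), against 5.28% of all probes, and neither was detected on all arrays. Both were nicotinic and both lay below 0. Chrnb3, a subunit of the receptors on midbrain dopaminergic terminals, gave -0.063, -0.022 and -0.069 in pools 1, 2 and 3, with a mean of -0.051 ± 0.025 (limma unadjusted p 0.03, adjusted p 0.358). The other Chrnb3 probe, detected on no array, gave a mean of 0.0043. Chrnb1, the beta subunit of muscle receptors and 1 of the 4 genes with TAATTA before its start, gave -0.031, -0.0088 and -0.0043, with a mean of -0.015 ± 0.014 (limma adjusted p 0.833). Among the 29 receptor probes detected on all arrays the count with 1 sign was 0, against 8.89% of all probes so detected, whose median brightness was higher.

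Muscarinic receptors are the G protein-coupled receptors for acetylcholine, and 1 of 5, Chrm5, was detected on all arrays in at least 1 channel. Chrm5, also with TAATTA before its start, gave log2 ratios of -0.057, 0.017 and 0.15 in pools 1, 2 and 3, with a mean of 0.038 ± 0.11 (SD, n = 3; limma adjusted p 0.821). It was above 0 on 5 of 6 arrays, and the exception, at -0.144, was the dimmest array. Chrm1, Chrm2, Chrm3 and Chrm4 had means between -0.0055 and 0.033. The adrenergic genes on the array were Adra1b, detected in neither channel on any array, and Adra2c, detected on 5 arrays in each channel, with -0.029, -0.022 and 0.00037 in the 3 pools.

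Of the 14 serotonin receptor genes Htr1a and Htr3a were detected in both channels on all 6 arrays. Htr1a, which lowers cyclic AMP, gave -0.022, 0.018 and 0.014 in pools 1, 2 and 3 and a mean of 0.0032 ± 0.022 (SD, n = 3), and its 6 arrays lay between -0.031 and 0.021. Htr3a, the core subunit of the serotonin-gated channel, had the largest mean ratio among the receptor probes detected on all arrays, at 0.093 ± 0.11, with 0.0011, 0.070 and 0.21 in the 3 pools and a limma adjusted p of 0.456. A single array decided this value. The array of pool 3 with Lmx1a RNA in Cy3 gave 0.47, the other 5 gave -0.052 to 0.072, and their mean was 0.018. The same array decided the mean of 1 Htr4 probe, which was 0.145 ± 0.23 with 0.88 on that array and -0.0029 over the other 5. The 2 other Htr4 probes gave means of -0.0054 and 0.033. On this array the SD of the ratios over the 108 receptor probes was 0.126, against 0.0615 to 0.0639 on the other 5. Over all probes it was 0.0939 there and 0.0809 to 0.0954 on the others. Htr1d was above 0 in every pool, at 0.037, 0.044 and 0.050, with a mean of 0.044 ± 0.0064 (limma unadjusted p 0.0335, adjusted p 0.371), and was detected on 5 arrays in each channel.

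Ionotropic glutamate receptors comprise the AMPA, kainate and NMDA channels, and 6 of their 15 genes were detected in both channels on all 6 arrays. Gria2, the AMPA subunit that limits calcium entry, gave log2 ratios of -0.0031, 0.049 and -0.034 in pools 1, 2 and 3, with a mean of 0.0040 ± 0.042 (SD, n = 3). Grik4, a kainate subunit, was below 0 in every pool by its brightest probe, at -0.026, -0.020 and -0.043, with a mean of -0.029 ± 0.012 (limma adjusted p 0.585). The other Grik4 probes gave means of 0.011 and 0.044, so the probes of this gene did not share a sign. Grin2a, an NMDA subunit of mature synapses, gave 0.081, 0.043 and -0.011, with a mean of 0.038 ± 0.046 (limma adjusted p 0.623). Its brightness varied between arrays far more than its ratio did. In the Lmx1a channel it was 344, 198 and 31.0 on the arrays of pools 1, 2 and 3 with Lmx1a RNA in Cy5, and 29.2, 26.9 and 18.2 with Lmx1a RNA in Cy3. In the control channel of the same arrays it was 150, 87.3 and 15.8, and 59.0, 49.8 and 36.0. Grin2b, of developing synapses, gave 0.022, -0.026 and 0.013, and Grin2d -0.021, -0.0052 and -0.0091. Grin2c gave a mean of -0.0059 ± 0.064 by its brightest probe, and -0.0077 and 0.0034 by its 2 others. Gria4, another AMPA subunit, had a net brightness of 618 in the Lmx1a channel and 1470 in the control channel on the array of pool 3 with Lmx1a RNA in Cy3. On the other 5 arrays it lay between 7.34 and 43.6 in the Lmx1a channel and between 5.87 and 26.5 in the control channel. Its mean ratio of -0.038 ± 0.097 included -0.302 on that array.

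**Figure D4:**
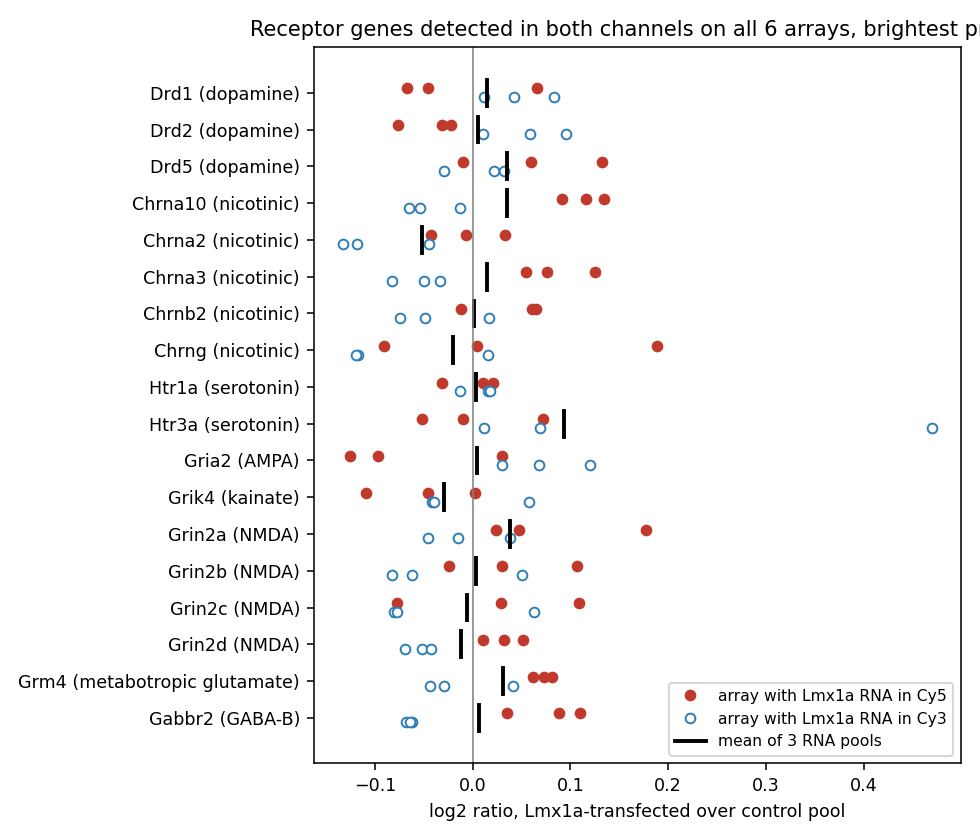
Log2 ratio of Lmx1a over control (horizontal axis) on each of 6 arrays for the 18 receptor genes detected in both channels on all arrays, each by its brightest probe. Filled points are arrays with Lmx1a RNA in Cy5, open points arrays with Lmx1a RNA in Cy3, and bars the mean of 3 pools; points lie on both sides of 0 for each gene, and Htr3a has 1 array at 0.47.

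Metabotropic glutamate receptors are the G protein-coupled receptors of this transmitter. Grm4, a presynaptic receptor that lowers cyclic AMP, had 7 probes, of which 3 were detected in both channels on all 6 arrays. The brightest of them, with a net brightness of 511 in the Lmx1a channel and 427 in the control channel, was above 0 in every pool, at 0.0090, 0.022 and 0.061. Its mean was 0.031 ± 0.027 (SD, n = 3), with a limma adjusted p of 0.623. The next gave 0.014, -0.145 and -0.0049 and a mean of -0.046 ± 0.087, which 1 array decided: the array of pool 2 with Lmx1a RNA in Cy5 gave -0.242, and the mean of the other 5 was -0.0063. The third gave a mean of -0.0068 ± 0.018. The 4 other Grm4 probes had means from -0.020 to 0.012. The Grm4 probes thus gave both signs, and none passed the threshold. Grm6, the receptor of retinal ON bipolar cells, was at -0.022 ± 0.041, with -0.093 on average with Lmx1a RNA in Cy5 and 0.049 in Cy3. Grm2, detected on 5 arrays in the Lmx1a channel and 2 in the control channel, gave 0.0086, 0.087 and 0.10, with a mean of 0.065 ± 0.050 (limma unadjusted p 0.0323, adjusted p 0.366). Its 3 arrays with Lmx1a RNA in Cy5 all lay below 0, at -0.055, -0.022 and -0.035, and its 3 with Lmx1a RNA in Cy3 above it, at 0.072, 0.20 and 0.24.

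GABA-A receptors are chloride channels, and none of the 15 GABA-A genes was detected in both channels on all 6 arrays. Gabra6, known from cerebellar granule cells, was detected on all arrays in at least 1 channel, with -0.017, -0.028 and 0.045 in pools 1, 2 and 3 and a mean of -0.00013 ± 0.040 (SD, n = 3). Gabrp, detected on 2 arrays in the Lmx1a channel and 0 in the control channel, was above 0 in every pool, at 0.011, 0.056 and 0.086, with a mean of 0.051 ± 0.038 (limma unadjusted p 0.0479, adjusted p 0.419). Gabrg1, with the same motif before its start and detected on 0 arrays in the Lmx1a channel and 1 in the control channel, ranged from -0.192 to 0.134 over its arrays, and its mean was -0.016 ± 0.045. The GABA-A means ran from -0.017 to 0.051 with 8 of 17 above 0. GABA-B receptors couple to G proteins, and the 5 Gabbr2 probes detected on all arrays had means of -0.026, -0.011, -0.0070, 0.0015 and 0.0063. Of these, 3 followed the dye on all 6 arrays. Gabbr1 gave -0.0034, 0.026 and -0.0034, with a mean of 0.0064 ± 0.017.

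Many receptor ratios changed sign with the dye. For 25 of 108 receptor probes (23.1%) the sign of the ratio followed the dye on all 6 arrays, against 15.8% of all probes. Among the 29 receptor probes detected on all arrays it did so for 7 (24.1%), against 15.6% of all probes so detected. Of the 25, 10 were above 0 with Lmx1a RNA in Cy5 and below 0 with Lmx1a RNA in Cy3, and 15 ran the other way. The median ratio over the 29 detected probes was 0.020 with Lmx1a RNA in Cy5 and -0.018 in Cy3, and over the 32 probes detected on no array it was -0.013 and 0.024. Fitted on 1 orientation alone, limma called 0 of 108 receptor probes in either, with a smallest adjusted p of 0.0568 for Chrna10 in Cy5 and of 0.103 in Cy3. Over all probes 993 passed the adjusted threshold in Cy5 and 215 in Cy3. At an unadjusted limma p under 0.05 there were 18 receptor probes in Cy5 and 19 in Cy3. The share of all probes at that limit is not given for these fits, so these counts cannot be read as particular to receptors.

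**Figure D5:**
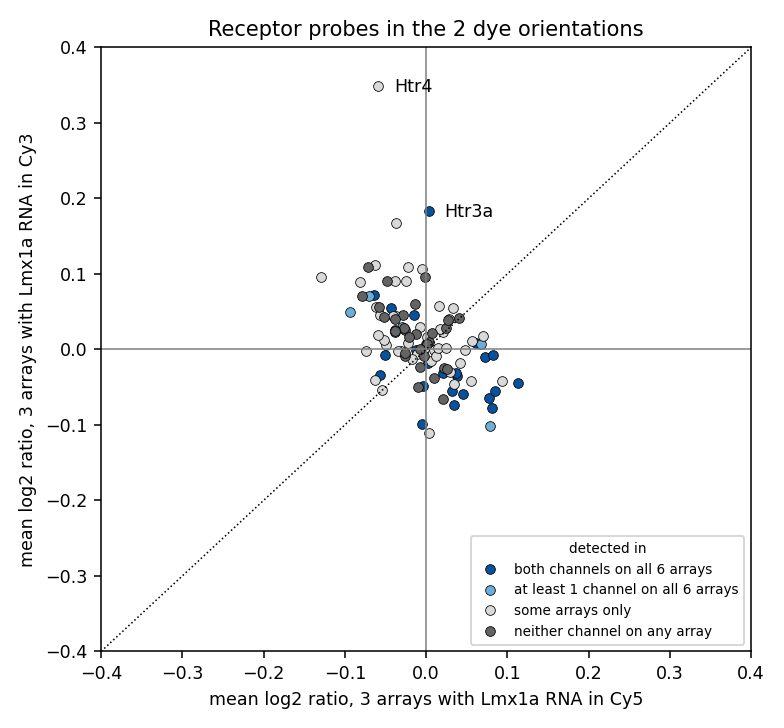
Mean log2 ratio of each receptor probe over the 3 arrays with Lmx1a RNA in Cy5 (horizontal axis) against the 3 arrays with Lmx1a RNA in Cy3 (vertical axis), coloured by detection. Points along the dotted diagonal would have the same ratio in both orientations; 25 of 108 probes have opposite signs in them on every array, and Htr4 and Htr3a stand high on the vertical axis through 1 array.

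Genes whose products work with these receptors were described by lists. Of 44 scaffold and auxiliary subunit genes 38 were measured, with a median log2 ratio of -0.00079 over their brightest probes and 0 past the adjusted threshold in limma's fit or with the replicate block. At an unadjusted limma p under 0.05 there were 3 above 0 and 1 below, 10.5% of the list, against 11.8% of all probes. These lists hold each gene's brightest probe, while the share over all probes includes probes with no gene name. Among probes with a gene name that share was 10.4%, and 4.69% kept 1 sign on all 6 arrays. The shares of these lists were not matched for brightness. Pick1, which binds AMPA receptors, lay below 0 on 6 of 6 arrays, with -0.093, -0.069 and -0.059 in pools 1, 2 and 3, and a mean of -0.074 ± 0.018 (limma adjusted p 0.197). Grip2, of the same receptors, gave 0.078, 0.040 and 0.050 (limma adjusted p 0.298), with a mean of -0.016 over the arrays with Lmx1a RNA in Cy5 and 0.13 over those with Lmx1a RNA in Cy3. Dlg1, a membrane scaffold, gave 0.025, 0.073 and 0.074 (limma adjusted p 0.317). Of the 38 scaffold and auxiliary subunit genes, 1 (2.63%) kept 1 sign on all 6 arrays, against 5.28% of all probes. Of 40 signalling and desensitisation genes 39 were measured, with a median of -0.00062, 0 past the adjusted threshold in either fit, and 3 above 0 at an unadjusted p under 0.05 (7.69%, against 11.8% of all probes). Prkar2b, a regulatory subunit of protein kinase A, lay above 0 on 6 of 6 arrays, with 0.079, 0.063 and 0.065 in the 3 pools and an adjusted p of 0.204 from limma, and Creb1, a transcription factor downstream of that kinase, also on 6 of 6, with 0.038, 0.22 and 0.092. In this list 2 of 39 genes (5.13%) kept 1 sign on all 6 arrays, against 5.28% of all probes. Its means lay above 0 for 19 genes and below 0 for 20. Below 0, Camk2g and Camk2a had the smallest p among probes detected on all arrays. Their means were -0.040 and -0.036 (limma adjusted p 0.463 and 0.548). Of 29 genes of transmitter synthesis, transport and breakdown outside dopamine 25 were measured, with a median of -0.0051 and 0 past the adjusted threshold in either fit, and 1 above 0 and 1 below at an unadjusted p under 0.05 (8%, against 11.8% of all probes). Slc17a6, a vesicular glutamate transporter, gave 0.068, 0.26 and 0.037 in the 3 pools. Tph2, of neuronal serotonin synthesis, gave -0.073, -0.021 and -0.072.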

How the data were processed

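Per the labels, RNA of Lmx1a-transfected and control MN9D cells was hybridised on 2-colour arrays. The deposited scanner tables give each spot's intensity on a linear scale with its local background, per the file headers, which name neither the scanner nor its software. The authors also deposited log2 ratios of Lmx1a over control, which followed a print-tip loess fit of the scanner values (correlation 0.996 to 0.999, slope 1.00 on each array, column medians -0.0034 to 0.0042). No label states the scale, centring or direction of that table, so these were inferred by setting it against the scanner values, and it was used only as an alternative.

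Of 34992 spots per array, 3223 were controls, which had weight 0 and were left out. Background was corrected with normexp (offset 50), ratios were normalized by loess (span 0.3) within each array and turned to Lmx1a over control, and the 2 arrays of a pool were averaged. The 3 pools were tested in R 4.3.3 with limma 3.58.1 (lmFit, eBayes); p-values were adjusted over the 31769 probes by Benjamini-Hochberg, with calls at 0.05. Intervals are at 95%. The arrays of a pool share the same RNA extracts, so the replicate number pairs them by design; the replicate block fit had a dye term and a consensus correlation of 0.0684. The procedure was tested on simulated data. The simulated pools were independent, with no dye effect, shared control pool or outlying array, so that test does not bear on these. The number of arrays limits the precision.

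Gene names came from GEO's platform annotation for 26000 probes, with older symbols updated through RefSeq, so Drd1a is given as Drd1. The members, the marker and partner lists and the naming rule were chosen with earlier results of these data known. The rule named Lmx1a, the dopamine receptors and the 15 brightest genes whose brightest probe was detected in both channels on all arrays. It also named the 5 largest ratios on each side among probes detected on all arrays, genes with several probes and the widest range in each family. From each partner list it named the members with the smallest p. Other genes named in the text were chosen after their values were seen.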

Additional observations from a re-analysis of the deposited data

Results flagged for a closer look

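Among 49 receptor probes named by the rule, 3 had an array far from the other 5 by Dixon's critical value. Chance sets apart about 1 in 20 groups of values, but that rate does not hold here, since these 3 were named for a large ratio or a wide range, and the count is a description only. Htr3a was at a log2 ratio of 0.4697 on the array of pool 3 with Lmx1a RNA in Cy3, against -0.052 to 0.072 on the others. On the same array 1 of 3 Htr4 probes was at 0.8826, against -0.083 to 0.106. A Grm4 probe was at -0.2423 on the array of pool 2 with Lmx1a RNA in Cy5, against -0.049 to 0.037.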

How the results depend on the processing

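In limma's fits 0 receptor probes passed the adjusted threshold under any of the 16 alternatives (no or plain background subtraction, print-grid loess, centring on the median, Aquantile, the deposited ratios, either dye orientation alone, the replicate block with and without a dye term, each replicate left out, the dimmest array left out of the replicate block fit, variance trend with robust prior, and probes detected on all arrays only). The smallest adjusted p for a receptor probe lay between 0.0568 and 0.731 over them. The count at an unadjusted p under 0.05 was 18 with Lmx1a in Cy5 only and 19 in Cy3 only, and 0 to 9 under the other 14. The share of all probes at that limit is not given for these fits, so a change in the count cannot be read as particular to receptors. Over all probes, the count past the threshold was 0 in the fit on pool means. It was 49 with median centring, 993 with Lmx1a in Cy5 only, 215 in Cy3 only, and 0 to 1 with a replicate left out. With the replicate block it was 333, and 91 in that same block fit without the dimmest array. The replicate block without a dye term, which was added once the data had been seen, gave 342. The receptor median, 0.0011, was 0.00997 with plain subtraction, -0.0207 with median centring (where the median of all probes was -0.0186), -0.00622 with Lmx1a in Cy5 only, 0.00812 in Cy3 only, and -0.0012 to 0.0023 with a replicate left out. Of 61 ratios of named probes, the sign changed for 21 with median centring, 20 in Cy5 only, 17 in Cy3 only and 7 to 16 with a replicate left out; none of these passed the threshold. Plain subtraction moved 31 of the 61 by more than 1 SD, among them the dimmest Grik4 probe (0.471 in place of 0.044) and the dimmer Drd1 probe (-0.218 in place of -0.054). A Gabbr2 probe detected on no array moved further, to 1.05 in place of 0.041. The cause was not tested. Dim signal limits the receptor probes: 29 of 108 were detected on every array.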

Other observations

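On the array of pool 3 with Lmx1a RNA in Cy3, the Gria4 spot was bright in both channels (618 in the Lmx1a channel and 1470 in the control channel), while its highest value on the other 5 arrays was 43.6 in the Lmx1a channel and 26.5 in the control channel. The Htr4 probe that stood apart on this array had a net brightness of 56.0 in the Lmx1a channel and 24.3 in the control channel there, and at most 6.5 in the Lmx1a channel and 6.12 in the control channel elsewhere.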
